A study of Bos taurus with 20 samples.

Results

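T-box genes encode transcription factors that share the T-box, a DNA-binding domain, and 8 of them, TBX1, TBX2, TBX3, TBX4, TBX5, TBX15, TBX18 and TBX20, were followed here by their symbols among the 33064 rows of a table of raw counts per gene. The counts came from clones of bovine adipose mesenchymal stem cells (MSCs), each grown from a single sorted cell of visceral fat of Holstein Friesian x Aberdeen Angus calves, and sequenced undifferentiated, with 1 library per clone. The study compared 10 adipogenic (A) clones, which had formed lipid-filled adipocytes when differentiated in parallel, with 10 non-adipogenic (N) clones, which had not, and no other treatment or genotype separated them. There were 4 clones per condition from each of animals 22 and 23, and 1 per condition from each of animals 17 and 20. A clone is written as its animal and clone number, so that clone 22-5 is clone 5 of animal 22. Clones of 1 animal share that animal, the A clones were picked for strong differentiation, and the fat came from the inguinal or the perirenal region without the labels saying which animal gave which.

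T-box proteins bind a common DNA element and act as activators or repressors, and their genes are best known for patterning limbs, heart and body wall in the embryo. Many stay expressed in connective tissue cells of the adult in a pattern that follows body position, and in fat TBX15 is known for differing between depots, while TBX1 has been used as a marker of beige adipocytes in mice. TBX2 and TBX3 are close relatives that repress cell cycle inhibitor genes, TBX4 and TBX5 are the hindlimb and forelimb members, and TBX18 and TBX20 act in the heart and, for TBX18, in pericytes and smooth muscle precursors. The question here was which of these genes the clones expressed, and whether their levels followed adipogenic capacity or the animal of origin.

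Total counts on named genes ran from 14615493 to 29185355 in A clones and from 14908802 to 43111345 in N clones. The level of a gene is its count divided by the TMM-scaled size of the library (CPM), where a count of 0 allows up to 3 counts, or 0.0763 to 0.216 CPM depending on the library. These limits cover counting error only. Levels of different genes cannot be ranked against each other, since transcript lengths were not used. The 7 listed mesenchymal stromal markers (PDGFRA, PDGFRB, THY1, ENG, NT5E, ITGB1 and CD44) passed the filter, and their summed level was 3802 to 6278 CPM in A clones and 2775 to 5578 CPM in N clones, while 6 endothelial markers summed to at most 41.1 CPM in any clone. The 6 immune markers summed to at most 12.1 CPM, with medians of 6.92 CPM in A and 2.73 CPM in N clones and the 1 marker tested higher in A. The 6 mature adipocyte markers summed to 16.9 to 96.6 CPM in A clones (median 42.9) and 4.55 to 122 CPM in N clones (median 18.3). Of the 4 tested, 1 was higher in A. Beside the immune and adipocyte counts, 10.3% of all genes tested were higher in A at an adjusted p under 0.05. Clones 22-5 and 22-9, both N, stood apart from the rest with 9372 and 6710 CPM of summed mesothelial markers. The comparison of A with N clones is therefore also given without them, a choice made after the values were seen. The next highest clones, 22-11 and 22-16, both A at 1128 and 962 CPM, were kept.

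TBX18, TBX2, TBX3, TBX20 and TBX15 passed edgeR's default filter on low counts. TBX5 did not pass although 3 clones expressed it, TBX1 had 8 counts in all 20 libraries together, and TBX4 had a count of 0 in every clone. Of the 5 tested genes, 1 (TBX18) had an adjusted p under 0.05 for the difference between conditions, beside 20.6% of the 12900 genes tested, so the share among T-box genes was near that of all genes. TBX18 was higher in A clones, as were 10.3% of all genes, and changed by 2.05-fold, and 5.76% of all genes passed the same adjusted p with a change of at least 2-fold in either direction. The median log2 difference between A and N clones was 1.22 over the 5 genes and -0.01 over all genes tested.

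**Figure D1:**
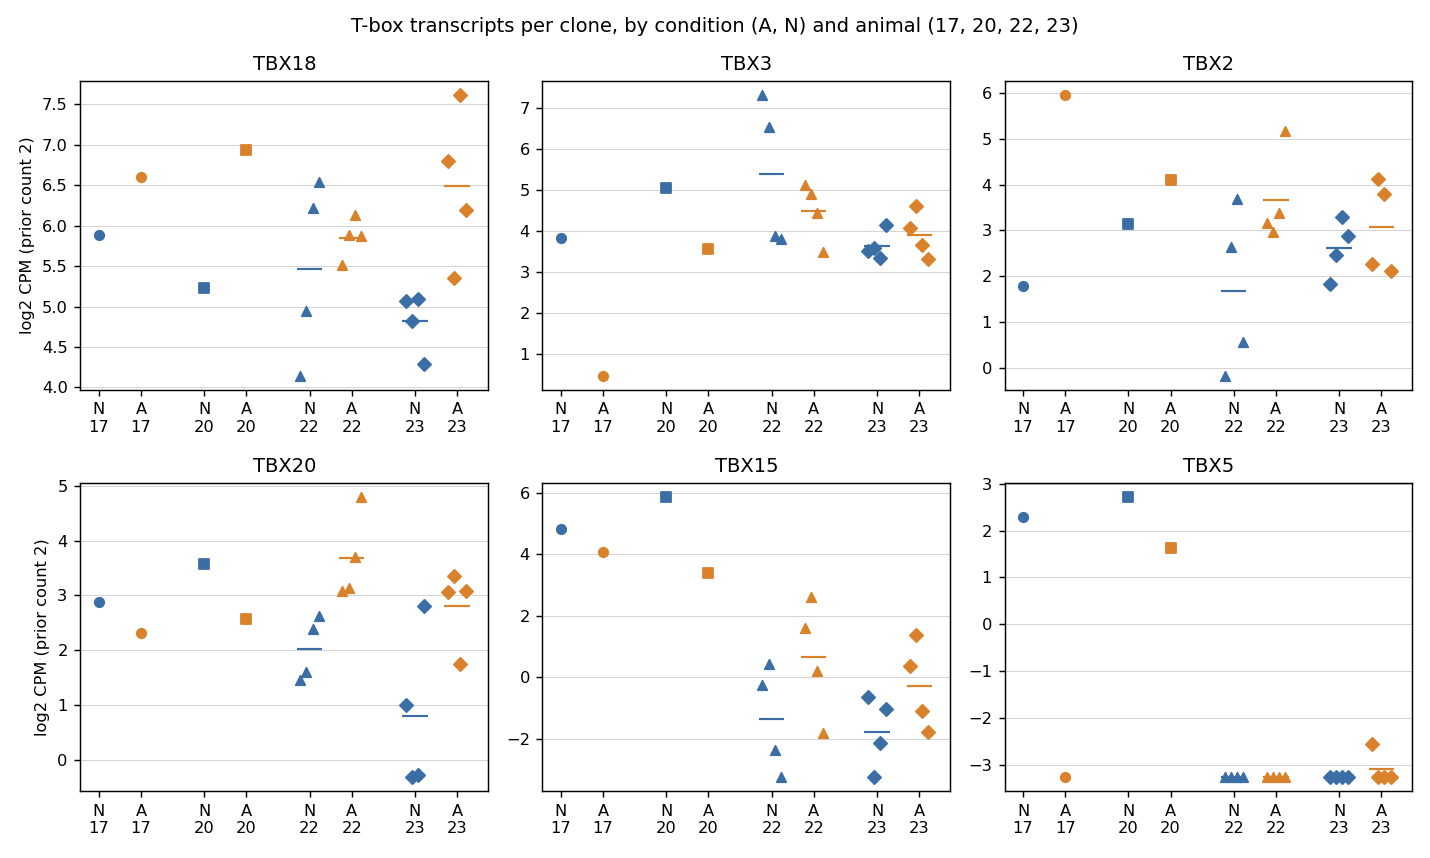
Level of 6 T-box genes in each of the 20 clones, as log2 CPM with a prior count of 2 (y axis of each panel), with clones placed by condition and animal (N in blue, A in orange, 1 point per clone, circles for animal 17, squares for 20, triangles for 22 and diamonds for 23). Bars mark the mean where a condition had 4 clones of an animal. TBX15 sits highest in all 4 clones of animals 17 and 20, and the A clones of animal 23 lie above its N clones for TBX18.

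TBX18, known from the epicardium, the ureter wall and vascular pericytes, had the clearest difference between conditions. Its level was lowest in A clones at 40.9 CPM, with a median of 71.5 and a highest value of 195.9 CPM in clone 23-68. In N clones the lowest value was 17.6 CPM in clone 22-5, the median 33.8 and the highest 92.6 CPM in clone 22-18. The groups overlapped, with 4 A clones (17-57, 20-106, 23-14 and 23-68) above all N clones and 7 N clones below all A clones. Mean levels were 87.4 ± 46.8 CPM in A and 42.6 ± 24.6 CPM in N clones (SD, n = 10 each), and the log2 fold change was 1.04 with a standard error (SE) of 0.36 and a 95% interval of 0.28 to 1.80 (adjusted p = 0.0491, edgeR's quasi-likelihood test with animal as a block). Every library is a bulk sample, so fewer expressing cells and less RNA per cell cannot be told apart.

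The A clone mean of TBX18 was above that of N clones in 4 of 4 animals, by 0.72, 1.71, 0.39 and 1.67 on the log2 scale in animals 17, 20, 22 and 23. In animal 23 the groups did not overlap, with A clones at 40.9, 72.8, 111.3 and 195.9 CPM and N clones at 19.4, 28.1, 33.5 and 34.0 CPM. In animal 22 they did, with A clones between 45.7 and 70.3 CPM lying inside the 17.6 to 92.6 CPM of the N clones. The share of all genes whose groups did not overlap within an animal was not counted. Fitted alone, animal 23 gave a log2 fold change of 1.87 (adjusted p = 0.0493) and animal 22 gave 0.11 (adjusted p = 0.923). The difference between the fold changes of these animals was 1.76 (SE 0.69, 95% interval 0.27 to 3.24), which did not pass adjustment over all genes (adjusted p = 0.490), as was the case for all but 4 of 12915 genes, or 0.031%.

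The call of TBX18 rested on small margins. It was lost in 15 of the 20 fits that left out 1 clone, with log2 fold changes of 0.82 to 1.23 and adjusted p of 0.0134 to 0.0909 over all 20, and it was lost without clones 22-5 and 22-9 (log2 fold change 0.93, adjusted p = 0.103). Over all alternatives to the main fit the adjusted p ranged from 0.0108 to 0.923, and the log2 fold change stayed above 0.

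Smooth muscle and pericyte markers are given beside TBX18, since some of them were also higher in A clones. This list of 8 genes (ACTA2, MYH11, CNN1, TAGLN, RGS5, CSPG4, MCAM and NOTCH3) had 7 genes tested, of which 3 were higher in A and 0 lower, beside 10.3% of all genes higher in A, and summed to 4335 to 11049 CPM in A clones (median 6280) and 1080 to 9966 CPM in N clones (median 3729). Clone 22-5 was lowest and clone 22-18 highest among the N clones in both the list and TBX18. Clone 23-74 did not follow, with 6945 CPM of these markers and 19.4 CPM of TBX18, the lowest of animal 23. The part of these markers in the TBX18 difference was not tested.

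**Figure D2:**
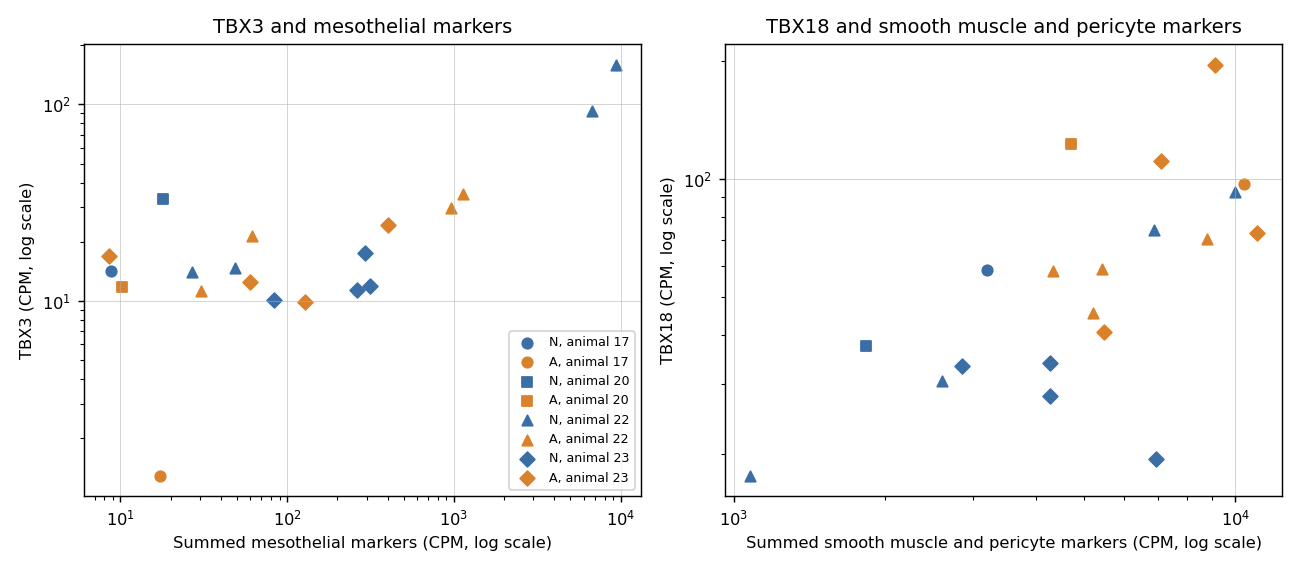
Left, TBX3 against the summed level of 8 mesothelial markers, and right, TBX18 against the summed level of 8 smooth muscle and pericyte markers, both in CPM on log axes, with 1 point per clone (N blue, A orange, marker shape by animal). Clones 22-5 and 22-9 lie at the upper right for TBX3 at 159 and 92.9 CPM, and clone 17-57 lies lowest at 1.29 CPM.

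TBX20, best known as a cardiac regulator, differed by a similar amount without passing the threshold. A clones ran from 3.24 CPM over a median of 8.35 to 27.8 CPM in clone 22-121, and N clones from 0.694 CPM in clone 23-22 over a median of 4.01 to 11.8 CPM in clone 20-15. The groups overlapped, with 2 A clones above all N clones and 5 N clones below all A clones. Mean levels were 9.86 ± 6.88 and 4.59 ± 3.50 CPM (SD, n = 10 each), with a log2 fold change of 1.22 (SE 0.47, 95% interval 0.23 to 2.22, adjusted p = 0.0737).

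The direction of TBX20 differed among animals. In animals 22 and 23, A clones averaged 1.67 and 2.01 log2 units above N clones. In animal 22 every A clone (8.36 to 27.8 CPM) was above every N clone (2.64 to 6.05 CPM). How many of all genes separated in this way was not counted. In animals 17 and 20 the single A clone was at 4.89 and 5.82 CPM and the single N clone at 7.22 and 11.8 CPM, so A was lower there. Restricted to the 16 clones of animals 22 and 23, a choice made after the values were seen, the log2 fold change was 1.67 (SE 0.46, adjusted p = 0.0242). Its adjusted p ranged from 0.0209 to 0.459 over all alternatives. Without clones 22-5 and 22-9 the log2 fold change was 0.98 (adjusted p = 0.205). The fold changes of animals 22 and 23 differed by -0.24 (95% interval -2.23 to 1.75).

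TBX2, which represses cell cycle inhibitors and is often raised in tumours, was higher in A than in N clones in 4 of 4 animals but varied widely. A clones spanned 4.24 to 61.9 CPM with a median of 12.1, the highest being clone 17-57, and N clones spanned 0.787 to 12.7 CPM with a median of 5.76, the lowest being clone 22-5. The groups overlapped, with 5 A clones above all N clones and 4 N clones below all A clones. Mean levels were 18.2 ± 17.9 CPM in A and 5.89 ± 3.80 CPM in N clones (SD, n = 10 each).

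The log2 fold change of TBX2 was 1.34 (SE 0.53, 95% interval 0.23 to 2.46), which did not pass the threshold (adjusted p = 0.0786). Within animals the difference was 4.16, 0.97, 1.99 and 0.46 on the log2 scale in animals 17, 20, 22 and 23. With no animal block the fitted value was 1.63 (adjusted p = 0.0374), without clones 22-5 and 22-9 it was 1.17 (adjusted p = 0.151), and over all alternatives the adjusted p ranged from 0.0222 to 0.463. The interval reached down to 0.23, and a lack of difference was not shown.

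TBX3, the close relative of TBX2, went the other way in these clones, with the lowest levels in A and the highest in N. A clones ran from 1.29 CPM in clone 17-57 over a median of 14.7 to 35.0 CPM in clone 22-11, and N clones from 10.1 over a median of 14.5 to 159 CPM in clone 22-5. The medians were thus almost equal, and the higher N mean (37.9 ± 49.5 against 17.4 ± 10.2 CPM, SD, n = 10 each) came with clones 22-5 and 22-9 at 159 and 92.9 CPM, where the next N clone was 20-15 at 33.1 CPM. The groups overlapped, with 2 A clones below all N clones. The log2 fold change was -0.94 (SE 0.49, 95% interval -1.98 to 0.10, adjusted p = 0.178), and without clones 22-5 and 22-9 it was -0.08 (SE 0.42, adjusted p = 0.920, within a range of 0.0942 to 0.920 over all alternatives).

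TBX3 is given beside the mesothelial markers, which some of its highest clones shared. The 8 mesothelial genes were MSLN, UPK3B, LRRN4, KRT8, KRT18, KRT19, BNC1 and WT1. Of these 7 were tested, 1 was lower and 0 were higher in A, beside 20.6% of all genes called in either direction. The list summed to 8.56 to 1128 CPM in A clones (median 60.8) and 8.80 to 9372 CPM in N clones (median 173). KRT8, a keratin of simple epithelia and mesothelium, was at 4755 and 2715 CPM in clones 22-5 and 22-9, where TBX3 was highest of all clones. Next in KRT8 came the A clones 22-11 and 22-16 at 584 and 445 CPM, and these had the highest TBX3 of the A clones, 35.0 and 29.7 CPM. The third A clone in both was 23-62, with 159 CPM of KRT8 and 24.5 CPM of TBX3. Clone 20-15 had 33.1 CPM of TBX3 with 0.0612 CPM of KRT8, so a high TBX3 level also occurred without the keratin. Other markers of the list did not follow TBX3 in the N clones 23-10, 23-22 and 23-74. Their list sums of 263, 314 and 293 CPM were above those of all but 5 clones, and WT1 was at 148, 177 and 137 CPM, above the 60.2 CPM of clone 22-11, while their TBX3 was only 11.4, 11.9 and 17.6 CPM. The part of these markers in the TBX3 levels was not tested.

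A non-coding gene, LOC107133302, was taken as a neighbour of TBX3 by gene order, without coordinates, and was looked up after the TBX3 values were seen. It had 50 counts (2.81 CPM) in clone 22-5, 31 counts (1.85 CPM) in clone 22-9, 0.937 and 0.942 CPM in clones 22-11 and 22-16, and at most 0.459 CPM in the other clones. Its highest clones were therefore those of TBX3 among animal 22. Reads of neighbouring or overlapping genes may be shared, and strand use in counting was not stated.

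**Figure D3:**
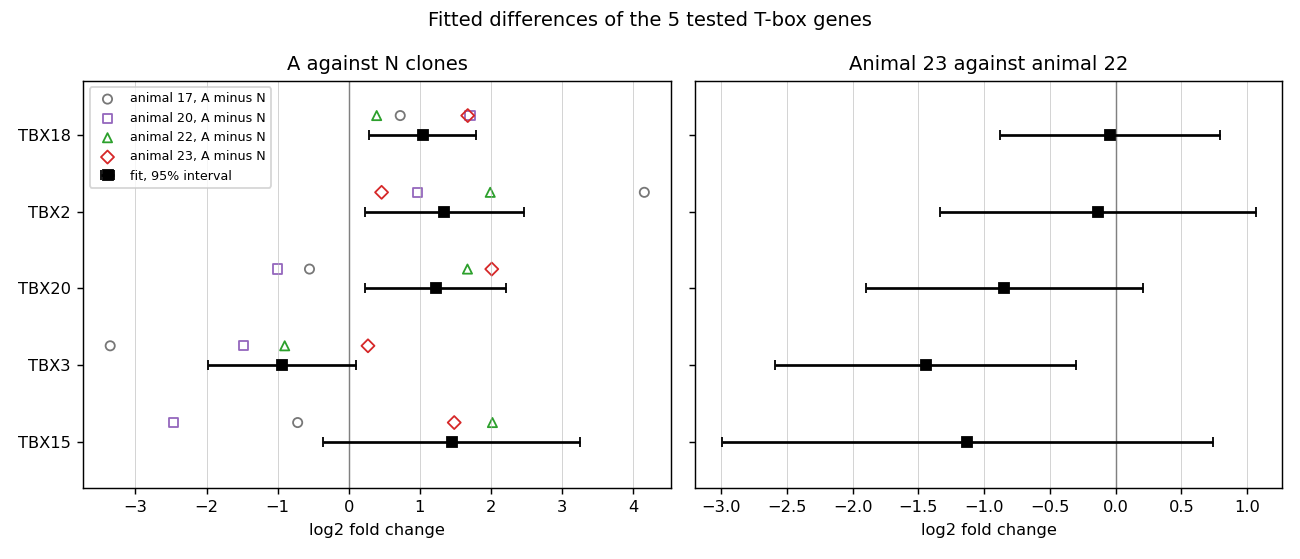
Log2 fold changes of the 5 tested T-box genes with 95% intervals (black squares and bars), on the left for A against N clones with animal as a block and on the right for animal 23 against animal 22. Open symbols on the left give the A minus N difference of mean log2 CPM within each animal. TBX18 and TBX2 lie above 0 in all 4 animals, and TBX20 and TBX15 lie above 0 in animals 22 and 23 and below 0 in animals 17 and 20.

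TBX15, a regulator of limb and skull skeleton that differs between fat depots in other species, followed the animal. Its level was 17.0 CPM in A clone 17-57, 28.0 CPM in N clone 17-23, 10.5 CPM in A clone 20-106 and 58.8 CPM in N clone 20-15. In animal 22 the A clones had 0.182 to 6.03 CPM and the N clones 0 to 1.25 CPM, and in animal 23 the A clones had 0.183 to 2.51 CPM and the N clones 0 to 0.530 CPM. All 4 clones of animals 17 and 20 were thus above all 16 clones of animals 22 and 23. This grouping of animals was chosen after the values were seen, and the share of all genes that separated so was not counted.

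A test over the 4 animals in the same fit, added after these values were seen, gave an adjusted p of 0.00920 for TBX15 (edgeR's quasi-likelihood F test), with log2 differences from animal 17 of 0.87 in animal 20, -4.54 in animal 22 and -5.67 in animal 23. Of the 5 T-box genes 1, TBX15, was called, as were 4.6% of all 12900 genes. For TBX3 the adjusted p was 0.137, for TBX20 0.527, for TBX2 0.632 and for TBX18 0.934. The TBX15 call was kept in all 20 fits that left out 1 clone (adjusted p 0.00745 to 0.0217). It was not reached in the A clones alone (adjusted p = 0.287) or the N clones alone (adjusted p = 0.0642), where animals 17 and 20 had 1 clone each, and over all alternatives the adjusted p ran from 1.85e-06 to 0.287.

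Between conditions TBX15 had no single direction. A clones were at 4.20 ± 5.55 CPM and N clones at 8.99 ± 19.5 CPM (SD, n = 10 each), with medians of 1.84 and 0.459 CPM, so that the mean was higher in N and the median in A. The A clone was lower in animals 17 and 20, by -0.72 and -2.47 on the log2 scale, and higher in animals 22 and 23, by 2.02 and 1.48. With animal as a block the log2 fold change was 1.45 (SE 0.86, 95% interval -0.36 to 3.26, adjusted p = 0.233), with no block it was -1.10, and without clones 22-5 and 22-9 it was 1.77 (adjusted p = 0.287).

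TBX5, which specifies the forelimb and parts of the heart, was present in clones of the same animals as TBX15. N clone 20-15 had 106 counts (6.49 CPM), N clone 17-23 had 88 counts (4.78 CPM) and A clone 20-106 had 61 counts (2.99 CPM), while A clone 17-57 had 0. Of the 16 clones of animals 22 and 23, 15 had 0 counts and A clone 23-14 had 1. TBX5 did not pass edgeR's filter, and a fit on all 23383 genes with at least 1 count gave it an adjusted p of 0.00150 over the 4 animals (edgeR's F test, looked up after the values were seen), where 2.82% of those genes were called. In the same fit its difference between A and N clones did not pass the threshold (adjusted p = 0.339). In the N clones alone the adjusted p over the animals was 0.127. Clones 20-15 and 17-23, highest in TBX5, were also the highest in TBX15. TBX5 and TBX3 were also taken as neighbours by gene order. The N clone 20-15 had the highest TBX3 level among the 4 clones of animals 17 and 20. The clones with the highest TBX3 of all, 22-5 and 22-9 at 159 and 92.9 CPM, had 0 counts of TBX5.

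TBX4, the hindlimb member, was taken as a neighbour of TBX2 in the same way. It was at 0 in all clones, including clone 17-57 with 910 counts of TBX2. TBX1, a gene of the pharyngeal arches, had 6 counts in A clone 22-11 and 1 count each in A clone 23-14 and N clone 23-74. Both genes were thus at or under the limit of detection in nearly every library, and a difference between A and N clones was not detectable at this depth.

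Between animal 23 and animal 22, the animals with 8 clones each, 0 of the 5 T-box genes passed the threshold in edgeR's test, beside 0.14% of all genes. The number of all genes at an unadjusted p under 0.05 was 1401. TBX3 had the largest difference, -1.44 (SE 0.54, 95% interval -2.59 to -0.30, unadjusted p = 0.0164, adjusted p = 0.337), and it was -0.57 without clones 22-5 and 22-9, both of animal 22. TBX18 differed by -0.04 (95% interval -0.88 to 0.80) and TBX2 by -0.14 (95% interval -1.34 to 1.07). For the interaction of condition and animal, 0 of the 4 T-box genes tested there passed, with TBX3 at 1.85 (adjusted p = 0.573) and TBX2 at -0.94 (adjusted p = 0.838), and TBX15 was left out by the filter.

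**Figure D4:**
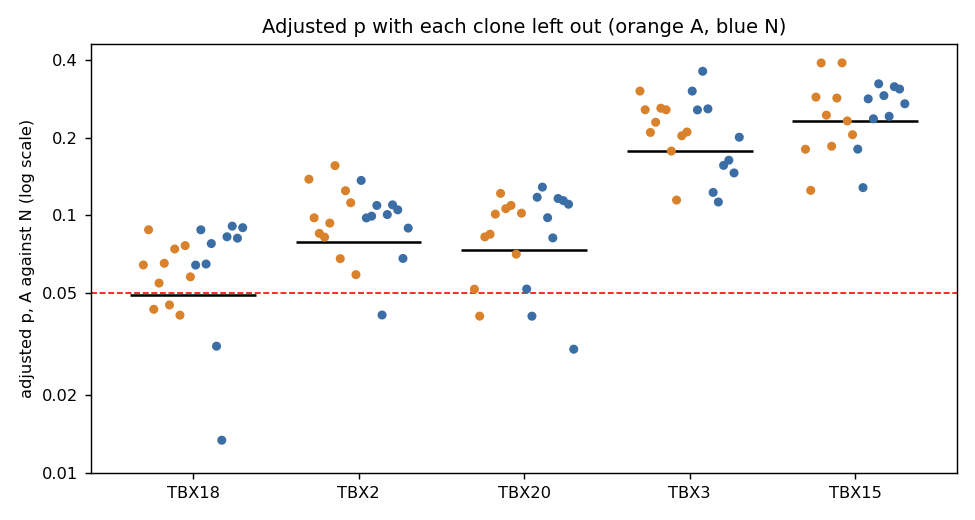
Adjusted p of A against N clones for the 5 tested T-box genes (y axis, log scale) in the 20 fits that each left out 1 clone, with orange points where an A clone and blue points where an N clone was left out. Black bars mark the fit on all clones and the dashed red line marks 0.05, which TBX18 met in 5, TBX20 in 3 and TBX2 in 1 of the 20 fits.

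The 5 tested genes did not all move together over the 20 clones. Pearson correlations of log2 CPM over the 20 clones ran from -0.57 for TBX2 and TBX3 to 0.37 for TBX2 and TBX18. That of TBX3 and TBX18 was -0.51 and weakened to -0.28 without clones 22-5 and 22-9. Over the 16 clones of animals 22 and 23 that of TBX3 and TBX15 was 0.53, where it was 0.003 over all 20. Clones share animals, so these values are a description.

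Each tested T-box gene was also set beside the 3 genes whose log2 CPM correlated with it most over the 20 clones. For TBX18 the nearest were SRL, a calcium-binding protein of the sarcoplasmic reticulum (r = 0.92), UBE2W, a ubiquitin-conjugating enzyme (r = 0.90), and LOC104973175 (r = 0.89). TBX3 was nearest to CSNK1G1, a casein kinase (r = 0.89, and 0.82 without clones 22-5 and 22-9), MTF2, a Polycomb-associated factor (r = 0.87), and CPT1C, of the carnitine palmitoyltransferase family (r = 0.86). TBX15 was nearest to FKBP5 (r = 0.90) and RASD1 (r = 0.87), both known as glucocorticoid-induced genes, and to the zinc finger factor GLIS3 (r = 0.86). These values span the difference of TBX15 between animals, with 10.5 to 58.8 CPM in animals 17 and 20 and at most 6.03 CPM in animals 22 and 23. Likeness within animals and shared regulation were not tested. For TBX2 the nearest were S100A5 (r = 0.77), the actin-binding TMSB4X (r = 0.75) and the GTPase RALA (r = 0.74), and for TBX20 they were C11H9orf50 (r = 0.83), LOC100847861 (r = 0.82) and LOC518080 (r = 0.80).

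Of 10 further names of the T-box family, 9 were in the table, and T, the older name of TBXT, was not. MGA, which joins a T-box to a MYC-like domain, was the 1 gene tested, with a log2 fold change of -0.03 (SE 0.11, adjusted p = 0.885) and 25.8 to 52.3 CPM over the clones. TBXT and TBX22 were at 0 in every clone. TBX21, known from T lymphocytes, was under the filter at 0.584 ± 0.453 CPM in A and 0.105 ± 0.127 CPM in N clones (SD, n = 10 each), with a highest count of 33.

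Genes whose products bind T-box proteins numbered 15, of which 13 were tested, 0 were higher and 3 were lower in A clones. Calls in either direction were a share near the 20.6% of all genes, where 10.3% of all genes were called higher in A. The 3 lower genes were the corepressor TLE3, with a log2 fold change of -0.76 (adjusted p = 0.00838), the cell cycle regulator RB1 at -0.47 (adjusted p = 0.0481) and the zinc finger factor GATA6 at -1.77 (adjusted p = 0.0494). The median of the list was -0.47 and that of all genes -0.01. GATA6 was at 199.9 and 181.7 CPM in clones 22-5 and 22-9, and at most at 138.6 CPM elsewhere.

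Of 13 genes known as T-box targets 9 were tested, with a median log2 fold change of 0.39. By edgeR's test 0 of these targets passed in either direction, beside 20.6% of all genes, and nothing is read from so few genes. Those with known repression by TBX2 and TBX3, CDKN1A and CDKN2A, were at -0.06 (adjusted p = 0.892) and 0.55 (adjusted p = 0.0759). The cardiac peptide gene NPPB was at 2.04 (adjusted p = 0.0594). FGF10, a limb bud growth factor that TBX5 activates, was at 1.74 (adjusted p = 0.137), and its level was 10.9 to 32.2 CPM in the 4 clones of animals 17 and 20 and 0.179 to 20.9 CPM in the 16 others, where 3 A clones of animal 23 (23-14, 23-68 and 23-108) were highest.

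Of 17 patterning and depot transcription factors 14 were tested, with a median of -0.07. TCF21, a factor of visceral mesenchyme, was higher in A clones (log2 fold change 2.43, adjusted p = 0.00563), and NR2F2 (-1.22, adjusted p = 0.00334) and IRX5 (-1.59, adjusted p = 0.0487) were lower. These 3 of 14 are a share near the 20.6% of all genes called. In the test over the 4 animals, 2 of the 14 were called, beside 4.6% of all genes, TCF21 (adjusted p = 0.00682) and WT1, a factor of mesothelium and visceral fat progenitors (adjusted p = 0.0398). WT1 was at 0 in all 4 clones of animals 17 and 20, where TBX15 was highest, and at up to 257 CPM in those of animals 22 and 23, in which clone 22-18 was the only one at 0. TCF21 was at 0 in 3 of the 4 clones of animals 17 and 20 and at 0.612 CPM in the remaining one, 17-57. In the 16 other clones it lay between 0.479 and 23.1 CPM.

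Of 11 brown and beige adipocyte genes 5 were tested, with a median of 1.14. TMEM26, a surface marker of beige cells (log2 fold change 3.09, adjusted p = 0.00325), and CIDEA, a lipid droplet protein (1.79, adjusted p = 0.00378), were higher in A clones, and 0 were lower. The 3 tested genes not called had log2 fold changes of 1.14 (EBF2), 0.80 (CITED1) and -0.59 (PPARGC1A). Among those not tested, UCP1 had 1 count in all 20 clones together and ZIC1 had 0. TMEM26 was not higher in A in every animal, with 0 CPM in A clone 20-106 and 0.122 CPM in N clone 20-15. It was also called over the 4 animals (adjusted p = 0.0303, edgeR's F test), beside 4.6% of all genes. Of all genes tested 10.3% were higher in A, and nothing particular to the list is read from 5 genes. TBX1, used as a beige marker in mice, was at 0 in 17 of the 20 clones.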

How the data were processed

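RNA of 20 undifferentiated MSC clones was sequenced from directional, paired-end libraries. The authors trimmed reads with Trimmomatic 0.36, mapped them with STAR 2.5.2b to the bovine genome ARS-UCD1.2 and deposited raw counts of unique reads within exons per gene (Subread 1.5.2). The strand setting and the treatment of overlapping genes were not given in the sources used here. Genes are named by the symbols of the table, and no coordinates or sequences were used. A row without a name (0.113 to 0.333% of a clone's counts) was left out.

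Counts were tested with edgeR 4.0.16 in R 4.3.3 (TMM, default filter on the condition, robust quasi-likelihood F test, Benjamini-Hochberg adjustment over all genes tested), with animal as a block. Animal 23 against 22 and, added after values were seen, the 4 animals were tested in the same fit, and the interaction on the 16 clones of animals 22 and 23. SEs and 95% intervals come from the F statistic, and a prior count of 2 was added for log2 CPM. A and N clones were paired by their animal. To check the pairing, the mean deviation of an animal's A clones from all A clones was correlated over genes with that of its N clones, giving 0.253 (animal 17), 0.192 (20), 0.241 (22) and 0.440 (23). p-values measure the spread between clones, and clones are not separate animals.

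The 8 genes and all lists were chosen with earlier results of these data known. Named genes were these 8, the 3 genes most correlated with each tested one, and up to 3 called genes of each list. Any other gene was named after its values were seen. Alternatives were no block, DESeq2 size factors, other filters, DESeq2 1.42.0, limma-voom (limma 3.58.1), single animals, and animals or clones left out. The fits were checked on simulated counts.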

Additional observations from a re-analysis of the deposited data

Results flagged for a closer look

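Some values stood far from those of the other clones of a group by Dixon's test. TBX3 was at 1.29 CPM in A clone 17-57, where the other A clones had 9.84 to 35.0 CPM. The other values were counts of genes near 0: TBX5 with 61 counts in A clone 20-106, and TBX1 with 6 counts in A clone 22-11 and with 1 count in N clone 23-74. In these groups of TBX5 and TBX1 the other clones had 0 or 1 count, so that a single clone with counts passes the test by construction. Of 34 groups of values examined, 4 had a clone past the critical value, and chance alone flags about 1 group in 20, so their number is not read as a result.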

How the results depend on the processing

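TBX18 was called in A against N clones with DESeq2 size factors, at least 10 counts per clone, DESeq2, limma-voom, no replicate block, without animal 22 and in animal 23 alone, and in 5 of the 20 fits without 1 clone, and not in the other fits. The count of T-box genes called, 1 in the main fit, was 2 with no replicate block, 0 with no filter, 3 with DESeq2, 2 with limma-voom, and 0 without animal 17, without animal 23, in animal 22 alone and without clones 22-5 and 22-9. Leaving out 1 clone gave 0 to 2. The count of all genes called also moved, from 2658 in the main fit to 2168 with no replicate block and 2755 with no filter. Over all alternatives it ran from 32 to 3528, so nothing particular to the T-box genes is read from these counts. TBX15 reversed to -1.10 with no replicate block, and TBX3 to 0.33 in animal 23 alone.

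The count of all genes called in A against N clones was 1471 without animal 22, 32 without animal 23, 153 in animal 22 alone and 800 in animal 23 alone (1984 to 3133 with 1 clone left out). Genes called and changed at least 2-fold numbered 1276 with no filter, 365 with at least 10 counts per clone, 22 without animal 23, 137 in animal 22 alone and 483 in animal 23 alone (615 to 929). Genes higher in A numbered 832 without animal 22, 21 without animal 23, 109 in animal 22 alone and 532 in animal 23 alone (1047 to 1578). Smaller fits have fewer clones, and other causes were not tested.

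For animal 23 against 22, DESeq2 called 274 genes and the A clones alone 0 (5 to 102 with 1 clone left out). TBX18 reversed to 0.86 in A clones alone and TBX2 to 0.31 in N clones alone, and with 1 clone left out TBX2 ran from -0.32 to 0.26 and TBX18 from -0.33 to 0.22. DESeq2 called 116 genes in the interaction (0 to 11 with 1 clone left out), where TBX20 ran from -0.55 to 0.98. Over the 4 animals, DESeq2 called 1710 genes, the A clones alone 258 and the N clones alone 230 (421 to 807), and T-box genes called numbered 2 with no filter (TBX15 and TBX5), 2 with DESeq2 (TBX15 and TBX3) and 0 in A or N clones alone. Animals 17 and 20 gave 1 clone per condition, and the fat region of each animal was not given, which limits what the animal differences describe.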
